A study of Mus musculus with 23 samples.

Results

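Interferon-stimulated genes are genes that cells transcribe when an interferon reaches them. A list of 42 known targets of type I and type II interferon was followed in the colon mucosa of PPARα KO and WT mice. The members were listed by name and role, with earlier results of these data known, so their counts are not independent of the data. Where a gene had several probe sets the brightest over all mice was taken. Of the 42 genes, 37 had a probe set of their own and were analysed among all 18820 genes with 1 value each. Ifi44 was not measured, and Parp9, Gbp6, Igtp and Irgm2 shared their probe sets with other genes and are described apart.

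Scraped colon mucosa of male mice, aged 7 to 9 weeks and housed individually, was hybridised to Affymetrix arrays that cover whole transcripts, and each mouse had its own array. There were 6 KO mice on the heme diet, 6 KO mice on the control diet, 6 WT mice on the heme diet and 5 WT mice on the control diet, after the study had left out 1 array of the last group for its quality. Feeding lasted 14 days, and the heme diet was the control diet with 0.5 µmol/g of heme added. Calcium was low (30 µmol/g) and fat high (40% of energy) in each of the diets. KO mice were 129S4/SvJae-Pparatm1Gonz/J, which carry a germline disruption of Ppara in all tissues, and WT mice were 129S1/SvImJ. Genotype and substrain therefore cannot be told apart in a comparison of KO with WT.

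Interferons bind receptors at the cell surface, and kinases of the Jak family then activate Stat proteins that carry the signal to the nucleus. Type I and type III interferons act mainly through a complex that holds Stat2 and Irf9 and binds the interferon-stimulated response element (ISRE), whereas interferon gamma, the type II interferon, acts mainly on gamma-activated sites (GAS). The products of these genes detect foreign RNA and DNA, block viral replication, attack intracellular microbes and load peptides on MHC class I. In the intestine a basal level of such genes is known to be kept up by signals from the microbiota and by resident immune cells.

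Values are linear signals, computed from the deposited log2 expression values. A gene was called when the adjusted p of the limma model over all 18820 genes was under 0.01 and either of the compared groups had a mean signal above 20. Averaged over the 4 groups, the signal of the 37 members ran between 15.2 and 1017, with a median of 148, and Isg15 alone stayed below 20 in each group. The mean log2 signal of 10 epithelial markers was 11.4 to 11.6 in every mouse. Single markers did change on heme, with 3 called higher and 2 lower in KO mice and 2 higher and 2 lower in WT mice. These are 50% and 40% of the markers, against 18.4% and 17.9% of all genes called, and opposite changes cancel in the mean. Ppara had signals of 163 to 238 in KO heme mice, 239.98 to 378 in KO control mice, 344 to 475 in WT heme mice and 444 to 560.2 in WT control mice. It was not determined whether its probe set covers the disrupted part. In bulk mucosa fewer cells of a type and less RNA per cell cannot be told apart.

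Many interferon-stimulated genes fell on the heme diet, and no member was called higher. In KO mice 15 of 37 members fell, against 9.2% of all genes tested, and none rose, against 9.23%. In WT mice 6 of 37 fell, against 8.29% of all genes, and none rose, against 9.6%. At an unadjusted p under 0.05 by limma, 1 member, Oasl1, was higher in each genotype. The median log2 fold change of the members was -0.61 in KO mice and -0.25 in WT mice, whereas that of all genes was -0.01 in each genotype. Ddx58, Irf7, Ifit1, Gbp2 and Tapbp fell in both genotypes, 10 members fell in KO mice alone and Tap2 in WT mice alone, with an adjusted p of 0.0109 in KO mice. Of the 10 members called in KO mice alone, 9 were below 0 in WT mice too, and Stat2 was not. The difference between the 2 heme responses, which is the test of such a contrast, was called for none of the 37 members (1 at an unadjusted p under 0.05). The order of the 2 counts also depends on the setting, with 10 called lower in KO and 10 in WT mice when the fit held the compared groups alone, and 9 and 13 without KO control mice 3 and 4. Heme-fed and control mice did not overlap for 7 members in KO mice, against 13.9% of all genes, and for 7 members in WT mice, against 15.1%, which are shares not far from those of all genes.

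**Figure D1:**
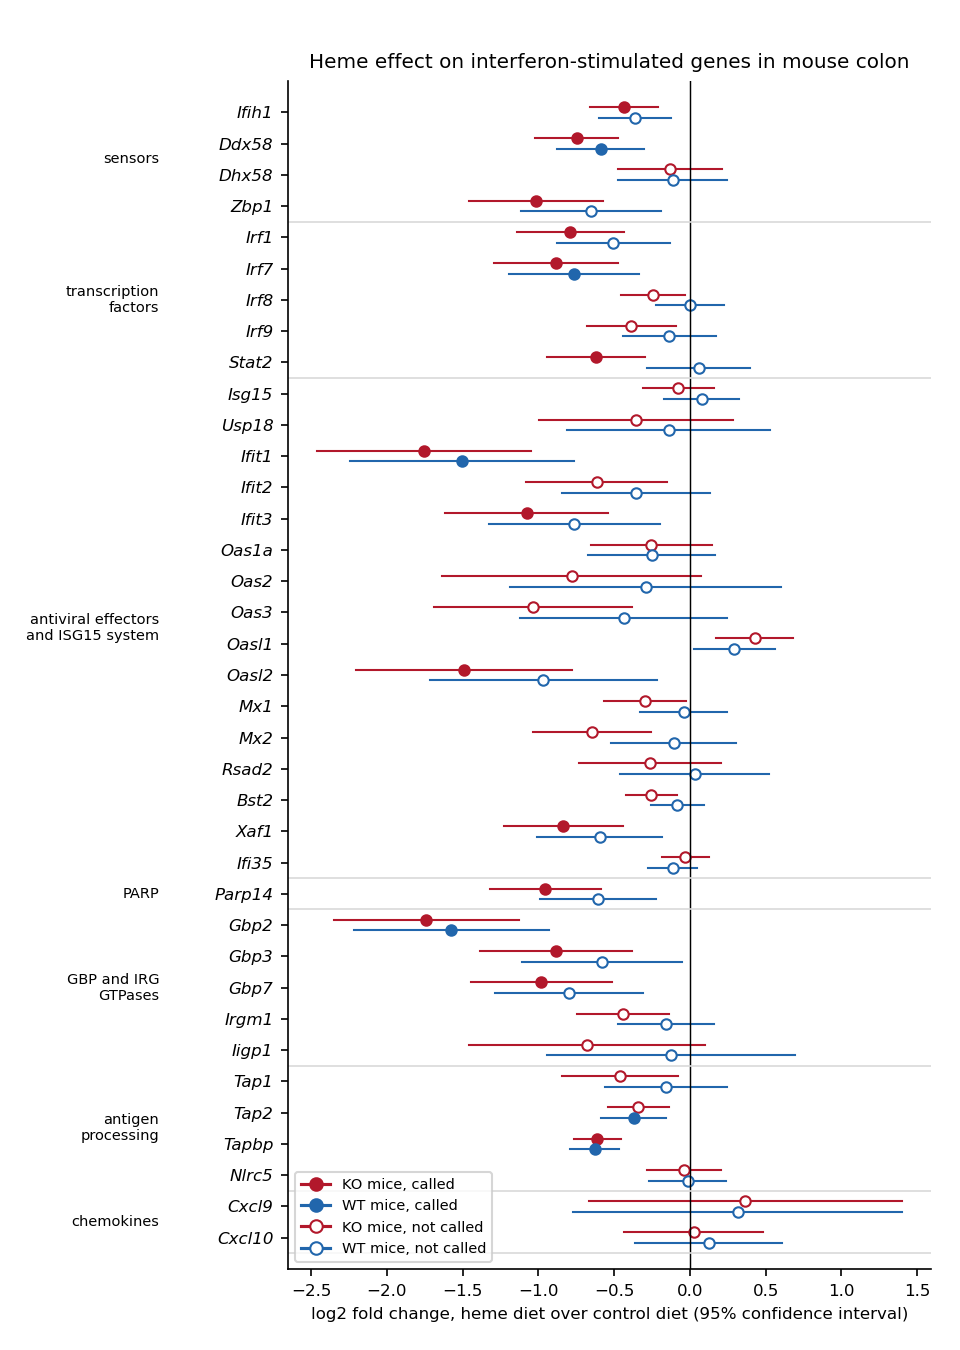
Effect of the heme diet as log2 fold change over the control diet (horizontal axis, with 95% confidence interval) of the 37 members, grouped by role, in KO mice (red, 6 against 6 mice) and WT mice (blue, 6 against 5 mice). Filled points were called; the largest falls belong to Ifit1 and Gbp2 in both genotypes, and Oasl1, Cxcl9 and Cxcl10 lie to the right of 0 in both.

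The log2 fold change on heme was below 0 for all 14 smooth muscle markers in both genotypes (medians -0.41 in KO and -1.08 in WT mice). Of these markers 1 fell in KO mice and 11 in WT mice (7.14% and 78.6%, against 9.2% and 8.29% of all genes). Their mean log2 signal was 7.22 to 7.78 in KO heme mice and 7.25 to 8.36 in KO control mice, and 7.37 to 7.83 in WT heme mice and 7.95 to 9.38 in WT control mice. With this mean as a covariate 15 members were called lower in KO mice, with Oas3 in place of Gbp3, and 2, Irf7 and Tapbp, in WT mice, without Ddx58, Ifit1, Gbp2 and Tap2. The median log2 fold change of the members was then -0.52 in KO and -0.49 in WT mice, and that of Ifit1 in WT mice was -1.83 and that of Gbp2 -1.27. Calls were thus lost while these values stayed below 0. In WT mice the smooth muscle mean did not overlap between the diets, so there this fit cannot separate an effect of diet from smooth muscle content. Of 13 markers of T and NK cells Gzma and Nkg7 fell in both genotypes (15.4%, against 9.2% of all genes in KO and 8.29% in WT mice). In WT mice 12 of the 13 lay below 0, and 6 passed an unadjusted p under 0.05 by limma. In KO mice 8 lay below 0 and 5 above, and 4 passed. None of 6 markers of all leukocytes, 9 of B and plasma cells or 5 of neutrophils was called (at an unadjusted p under 0.05, 1 neutrophil marker in each genotype), and of 13 markers of macrophages and dendritic cells Cd14 rose in KO mice. Without WT control mouse 1 the count of members called lower in WT mice was 3. It was 4 without WT control mouse 2, which had the highest smooth muscle mean (9.38), 6 without mouse 3 and 4 without mouse 4 or mouse 5.

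Several of the members with large falls carry the ISRE in their promoter. RefSeq promoter windows (build GRCm38.p6, 250 bases before to 50 after the start) were found for 30 of the 42 members. The core of the ISRE, GAAANNGAAA or TTTCNNTTTC on the other strand, was present in 17 of these 30 members (56.7%), against 4.0% of 27025 genes. It was present in 8 of 13 called members (61.5%) and in 7 of 14 members called in neither genotype. The GAS core, TTCNNNGAA, which reads the same on both strands and may overlap the ISRE core, was present in 9 of 30 members (30.0%), against 9.6% of all genes. It was present in 2 of 13 called members and in 5 of 14 members called in neither genotype. No ISRE core was found in the windows of Oasl2, Xaf1, Irf1, Irf7 and Tapbp, which says only that these letters are not in this window. Of the called members that hold the core, the 5 with the largest heme effects are shown as 120 bases of the plus strand, with the core in capitals.
Ifit1 (chr19:34640739-34640858): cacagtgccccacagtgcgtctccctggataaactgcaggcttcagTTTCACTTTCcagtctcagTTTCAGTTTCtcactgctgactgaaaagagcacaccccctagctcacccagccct
Gbp2 (chr3:142620549-142620668): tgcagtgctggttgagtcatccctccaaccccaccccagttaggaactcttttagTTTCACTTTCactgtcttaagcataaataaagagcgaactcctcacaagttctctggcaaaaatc
Ifit3 (chr19:34583335-34583454): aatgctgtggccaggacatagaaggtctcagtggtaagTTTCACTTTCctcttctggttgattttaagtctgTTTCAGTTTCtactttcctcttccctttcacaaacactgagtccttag
Gbp7 (chr3:142530228-142530347): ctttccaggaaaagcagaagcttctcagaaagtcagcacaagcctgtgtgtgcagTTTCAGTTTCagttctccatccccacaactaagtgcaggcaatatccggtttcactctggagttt
Gbp3 (chr3:142559947-142560066): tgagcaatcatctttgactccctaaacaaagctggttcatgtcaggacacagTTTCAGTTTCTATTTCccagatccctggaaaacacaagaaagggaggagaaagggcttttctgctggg
In these stretches the gene is read from left to right. The first core begins 104 bases before the start of Ifit1, 59 before that of Gbp2, 156 before that of Ifit3, 53 before that of Gbp7 and 45 before that of Gbp3. Ifit1 and Ifit3 hold 2 separate cores, and in Gbp3 2 cores overlap. A match of letters is a description of the sequence and not a measured binding site.

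Of 4 sensors of foreign nucleic acid, Ifih1, Ddx58 and Zbp1 fell in KO mice and Ddx58 fell in WT mice. Ddx58 encodes RIG-I, which detects viral RNA in the cytosol. Its signal was 174, 201 and 289 in KO heme mice (lowest, median and highest), against 301, 339 and 523 in KO control mice. In WT mice it was 154, 199 and 232 on heme, against 269, 273, 287, 302 and 324 in the control mice. Every heme-fed mouse lay below every control mouse of its genotype, with log2 fold changes of -0.75 (SE 0.13, adjusted p = 1.77e-04 by limma) in KO mice and -0.59 (SE 0.14, adjusted p = 0.00254) in WT mice. Zbp1, a sensor of left-handed nucleic acid that can start cell death, had signals of 54.1, 75.7 and 116 in KO heme mice, against 104, 125 and 276 in KO control mice. Only the highest heme-fed KO mouse reached into the control range, and the log2 fold change was -1.02 (SE 0.21, adjusted p = 8.49e-04). In WT mice Zbp1 was 56, 64.5 and 92.5 on heme, against 91.3, 98.1, 104, 108 and 124 in the control mice, where 1 heme-fed mouse overlapped and the log2 fold change of -0.65 was not called (adjusted p = 0.0316). Ifih1, which encodes the sensor of long viral RNA, was the brightest of this class, with 499, 558 and 698 in KO heme mice, against 683, 729.9 and 1035 in KO control mice. Its log2 fold change was -0.44 (adjusted p = 0.0038) in KO mice, a call that was lost without KO control mouse 4, KO heme mouse 2 or KO heme mouse 5 (adjusted p up to 0.0114), and -0.36 (adjusted p = 0.0199) in WT mice. Dhx58, a regulator of these sensors, had log2 fold changes of -0.13 and -0.11 in KO and WT mice, and neither passed the test.

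Among the 5 transcription factors, Irf7 fell in both genotypes and Irf1 and Stat2 in KO mice. Irf7 drives the second wave of interferon production. Its signal was 267, 335 and 396 in KO heme mice, against 479.7, 521 and 1226 in KO control mice, with no overlap (log2 fold change -0.88, SE 0.20, adjusted p = 0.00157 from limma). In WT mice it was 204, 312 and 446 on heme, against 402, 490.03, 511, 588 and 629.8 in the control mice. The WT groups overlapped in this gene, and its log2 fold change of -0.76 (SE 0.21, adjusted p = 0.00759) was no longer called without WT control mouse 1, 2, 4 or 5 or WT heme mouse 1, 3 or 5 (adjusted p up to 0.0245). Irf1, an early target of interferon gamma and the brightest factor of this class, had signals of 239.9, 461 and 644 in KO heme mice, against 596, 753 and 955 in KO control mice. The groups overlapped by the highest heme-fed mouse, above the lowest control mouse, and the log2 fold change was -0.79 (SE 0.17, adjusted p = 0.00118) in KO mice. In WT mice Irf1 was 327, 468 and 579 on heme, against 568, 622, 638, 649 and 687 in the control mice (log2 fold change -0.51, adjusted p = 0.0384, not called).

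Stat2, the partner of Irf9 in type I signalling, had the largest difference between the heme responses of the genotypes among the members. Its signal was 131, 248 and 342 in KO heme mice, against 292, 325 and 439 in KO control mice, while WT mice had 252, 300.3 and 325 on heme, against 275, 282, 285, 296 and 298 on the control diet. Of the KO heme mice 3 lay below every mouse of the other groups. The log2 fold change was -0.62 (SE 0.16, adjusted p = 0.00424 by limma) in KO mice and 0.06 (adjusted p = 0.852) in WT mice. The difference of the heme responses was -0.68 on the log2 scale (95% CI -1.15 to -0.21), with an unadjusted p = 0.0067 in limma and an adjusted p = 0.583, so that it did not pass. The KO call was lost without KO control mouse 3, KO control mouse 4 or KO heme mouse 5 (adjusted p up to 0.0145). Irf9 and Irf8, which encode the DNA-binding part of the same complex and a factor of myeloid and B cells, had log2 fold changes of -0.39 and -0.24 in KO mice and -0.14 and 0.00 in WT mice, none of them called.

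The antiviral effectors were the largest class. Of 16 members measured, 4 fell in KO mice (Ifit1, Ifit3, Oasl2 and Xaf1), 1 fell in WT mice (Ifit1) and the others were not called. Ifit1 binds foreign RNA by its cap and keeps it from being translated. Its signal was 42.6, 78.4 and 133 in KO heme mice, against 145, 244 and 731 in KO control mice, and 47.3, 67 and 123 in WT heme mice, against 152, 157, 185, 218 and 297 in WT control mice. No heme-fed mouse reached the control range of its genotype. Ifit1 was 3.38-fold lower on heme in KO mice (log2 fold change -1.75, SE 0.34, adjusted p = 4.23e-04 from limma) and 2.84-fold lower in WT mice (-1.51, SE 0.36, adjusted p = 0.00265), a call that was lost without WT control mouse 1 (adjusted p = 0.011). Ifit3, which stabilises that complex, had 53.4, 67.9 and 110.2 in KO heme mice, against 99.7, 119 and 307 in KO control mice, and 1 heme-fed mouse overlapped with the controls. Its log2 fold change was -1.08 (SE 0.26, adjusted p = 0.00286) in KO mice and -0.76 (adjusted p = 0.0389) in WT mice, and Ifit2, another gene of this family, had -0.62 and -0.36, without a call in either genotype.

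In the family of oligoadenylate synthetases, named for the messenger by which its enzymes activate RNase L, Oasl2 alone passed the test. Oasl2, an antiviral member of the family, had signals of 72.9, 98.2 and 156 in KO heme mice, against 165, 216 and 1036 in KO control mice, with no overlap. It was 2.81-fold lower in KO mice (log2 fold change -1.49, SE 0.34, adjusted p = 0.00207 from limma). In WT mice it was 62.6, 99 and 182 on heme, against 149, 160, 189, 243 and 269 on the control diet, with overlap, and the difference (-0.97 on the log2 scale, SE 0.36, adjusted p = 0.0486) was not called. Oasl1, the brightest antiviral member, which in mice restrains the translation of Irf7, stood on the other side of 0. It had 352, 438 and 479.9 in KO heme mice, against 253, 314 and 412 in KO control mice, and 271, 339.7 and 408 in WT heme mice, against 239, 241, 277, 286 and 332 in WT control mice. Its groups overlapped, and its log2 fold changes of 0.43 (SE 0.12, adjusted p = 0.0107) in KO mice and 0.29 (adjusted p = 0.0978) in WT mice were not called. At an adjusted p under 0.05, with array weights, with arrays centred on their median and with trended and robust variances Oasl1 was called higher in KO mice. Oas1a, Oas2 and Oas3, the synthetases proper, had log2 fold changes of -0.26, -0.78 and -1.04 in KO mice and -0.25, -0.29 and -0.44 in WT mice. None of them was called, and Oas3 had an adjusted p of 0.0154 in KO mice.

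Xaf1, which favours cell death, had signals of 75.4, 90.7 and 128 in KO heme mice, against 132, 135 and 352 in KO control mice, and 61.1, 89.4 and 99.8 in WT heme mice, against 106, 128, 133, 136 and 142 in WT control mice. The heme-fed mice of both genotypes lay below all controls of their genotype, with log2 fold changes of -0.83 (SE 0.19, adjusted p = 0.00177 by limma) in KO mice and -0.60 (SE 0.20, adjusted p = 0.0278, not called) in WT mice. The remaining effectors had values from -0.64 (Mx2) to -0.03 (Ifi35) in KO mice and from -0.14 (Usp18) to 0.08 (Isg15) in WT mice, without a call. They are the dynamin-like GTPases Mx1 and Mx2, which trap viral components, Rsad2, which encodes viperin, Bst2, which encodes the virus-tethering protein tetherin, Ifi35, the ubiquitin-like modifier Isg15 and Usp18, which removes it. Isg15 had group means of 14.3 to 16.3 and could not be called at this signal.

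Parp14, an enzyme that attaches ADP-ribose to proteins, fell in KO mice. It had 188, 274 and 468 in KO heme mice, against 429.9, 494 and 764 in KO control mice, where 1 heme-fed mouse overlapped, and 211, 280.4 and 355 in WT heme mice, against 404, 404, 410.4, 424 and 476 in WT control mice, without overlap. The log2 fold change was -0.95 (SE 0.18, adjusted p = 2.74e-04 by limma) in KO mice and -0.61 (SE 0.19, adjusted p = 0.0166, not called) in WT mice. Parp9, whose product forms a complex with the ubiquitin ligase Dtx3l, shared 2 probe sets with Dtx3l, and their signals cannot be assigned to either gene. In a fit over all 23099 probe sets with a gene name, in which 8.81% were called lower in KO mice and 7.92% in WT mice, both were called lower in KO mice (log2 fold changes -0.63 and -0.55, adjusted p = 0.00252 and 0.00415) and the brighter of them in WT mice (-0.56 and -0.51, adjusted p = 0.00909 and 0.0114).

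Guanylate-binding proteins and immunity-related GTPases, which attack the vacuoles of intracellular microbes, included Gbp2, the member with the lowest log2 fold change in WT mice. Of 5 members measured Gbp2, Gbp3 and Gbp7 fell in KO mice and Gbp2 fell in WT mice. Gbp2 had signals of 64.7, 80.1 and 169 in KO heme mice, against 185, 270.4 and 986 in KO control mice, and 48.7, 67.9 and 87.4 in WT heme mice, against 149.5, 207, 209, 226 and 239 in WT control mice. The groups did not overlap in either genotype. Gbp2 was 3.34-fold lower on heme in KO mice (log2 fold change -1.74, SE 0.30, adjusted p = 1.13e-04 from limma) and 2.98-fold lower in WT mice (-1.57, SE 0.31, adjusted p = 5.28e-04). Gbp7 had 99.3, 124 and 277 in KO heme mice, against 201, 230.3 and 510.2 in KO control mice, and 90.5, 113 and 156 in WT heme mice, against 173, 198, 200.3, 215 and 233 in WT control mice. KO mice overlapped in Gbp7 and WT mice did not, but the log2 fold change passed in KO mice (-0.98, SE 0.22, adjusted p = 0.00192) and not in WT mice (-0.80, SE 0.24, adjusted p = 0.0134). Gbp3 had log2 fold changes of -0.89 (adjusted p = 0.00768) in KO and -0.58 (adjusted p = 0.0955) in WT mice, and its KO call was lost without KO control mouse 3 or 4 or any of KO heme mice 2, 3, 4, 5 and 6 (adjusted p up to 0.0222). Irgm1, a regulator of the immunity-related GTPases and the brightest gene of this class, had 198, 224 and 332 in KO heme mice, against 256, 296 and 509 in KO control mice, and was not called (log2 fold change -0.44, adjusted p = 0.0262, and -0.16 in WT mice). Iigp1, another GTPase of this family, was not called either (-0.68 in KO and -0.13 in WT mice). The probe set shared by Igtp and Irgm2 had -0.67 in KO and -0.38 in WT mice, and those of Gbp6 and its neighbours -0.63 and -0.22 in KO and -0.19 and -0.10 in WT mice, none of them called. Guanylate-binding protein genes, like those of the Ifit3 and Oas1 families, are similar in sequence, and the arrays may not separate their RNA.

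**Figure D2:**
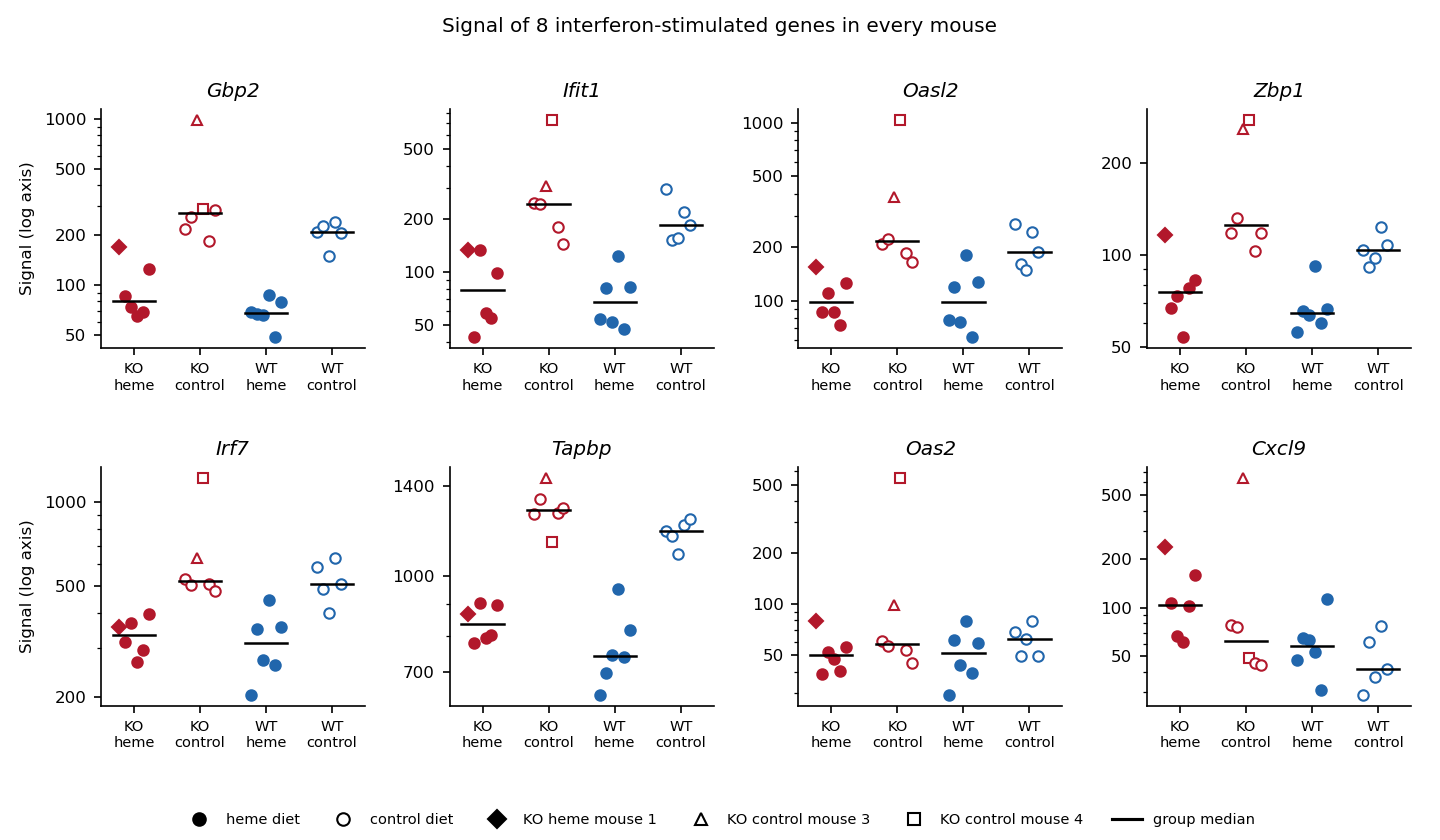
Linear signal (vertical log axis) of 8 members in every mouse of the 4 groups (KO red, WT blue, heme diet filled, control diet open), with the group median as a bar and KO heme mouse 1 as a diamond. Gbp2, Ifit1 and Tapbp show no overlap between diets in either genotype, while Oas2 and Cxcl9 differ from the rest of their group in KO control mouse 4 (square, 547) and KO control mouse 3 (triangle, 641).

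Of 4 genes of antigen processing, Tapbp fell in both genotypes and Tap2 in WT mice. Tapbp encodes tapasin, which loads peptides on MHC class I. Its signal was 781, 836 and 907 in KO heme mice, against 1136, 1276 and 1440.4 in KO control mice, and 643, 743 and 954 in WT heme mice, against 1086, 1161, 1184, 1211 and 1235 in WT control mice. The diets did not overlap in either genotype, and the log2 fold changes of -0.61 (SE 0.0741, adjusted p = 2.58e-06 by limma) in KO and -0.63 (SE 0.0778, adjusted p = 3.69e-06) in WT mice had the lowest adjusted p of all members. Tap2, part of the peptide transporter, had 117, 127 and 160.3 in KO heme mice, against 146, 155 and 229.9 in KO control mice, and 97.9, 108 and 132 in WT heme mice, against 132, 133, 143, 153 and 155 in WT control mice. It fell in WT mice (-0.37, SE 0.10, adjusted p = 0.0083), with overlap of 1 heme-fed mouse, and this call was lost without any 1 of 13 arrays: WT control mice 1, 2, 4 and 5, WT heme mice 1, 2, 3, 5 and 6, KO control mouse 2 and KO heme mice 2, 3 and 4 (adjusted p up to 0.0264). Its KO value was -0.34 (adjusted p = 0.0109). Tap1, the other part of the transporter, and Nlrc5, the transactivator of MHC class I genes, were not called, with log2 fold changes of -0.46 and -0.04 in KO and -0.16 and -0.01 in WT mice.

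The chemokines Cxcl9 and Cxcl10, which draw T cells through Cxcr3, were not called in either genotype. Cxcl9, the brighter of them, had signals of 61, 105 and 239.8 in KO heme mice, against 43.9, 62.3 and 641 in KO control mice, and 31, 58.1 and 113 in WT heme mice, against 28.8, 37.3, 41.7, 61.3 and 77.3 in WT control mice. All groups overlapped, and the log2 fold changes of 0.37 (SE 0.50, adjusted p = 0.649 by limma) in KO and 0.31 (SE 0.52, adjusted p = 0.727) in WT mice were not called. Cxcl10 had log2 fold changes of 0.02 and 0.12.

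KO control mice varied more among themselves than the other groups. The median SD of the members on the log2 scale was 0.30 in KO heme, 0.51 in KO control, 0.25 in WT heme and 0.18 in WT control mice, whereas over all genes it was 0.13, 0.11, 0.12 and 0.11. For 29 of the 37 members the spread was widest in KO control mice. Of these mice, mouse 4 had the highest signal in 22 members and mouse 3 in the other 15, so that these mice, of 6, held all the maxima. The remaining 4 KO control mice were never the highest.

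**Figure D3:**
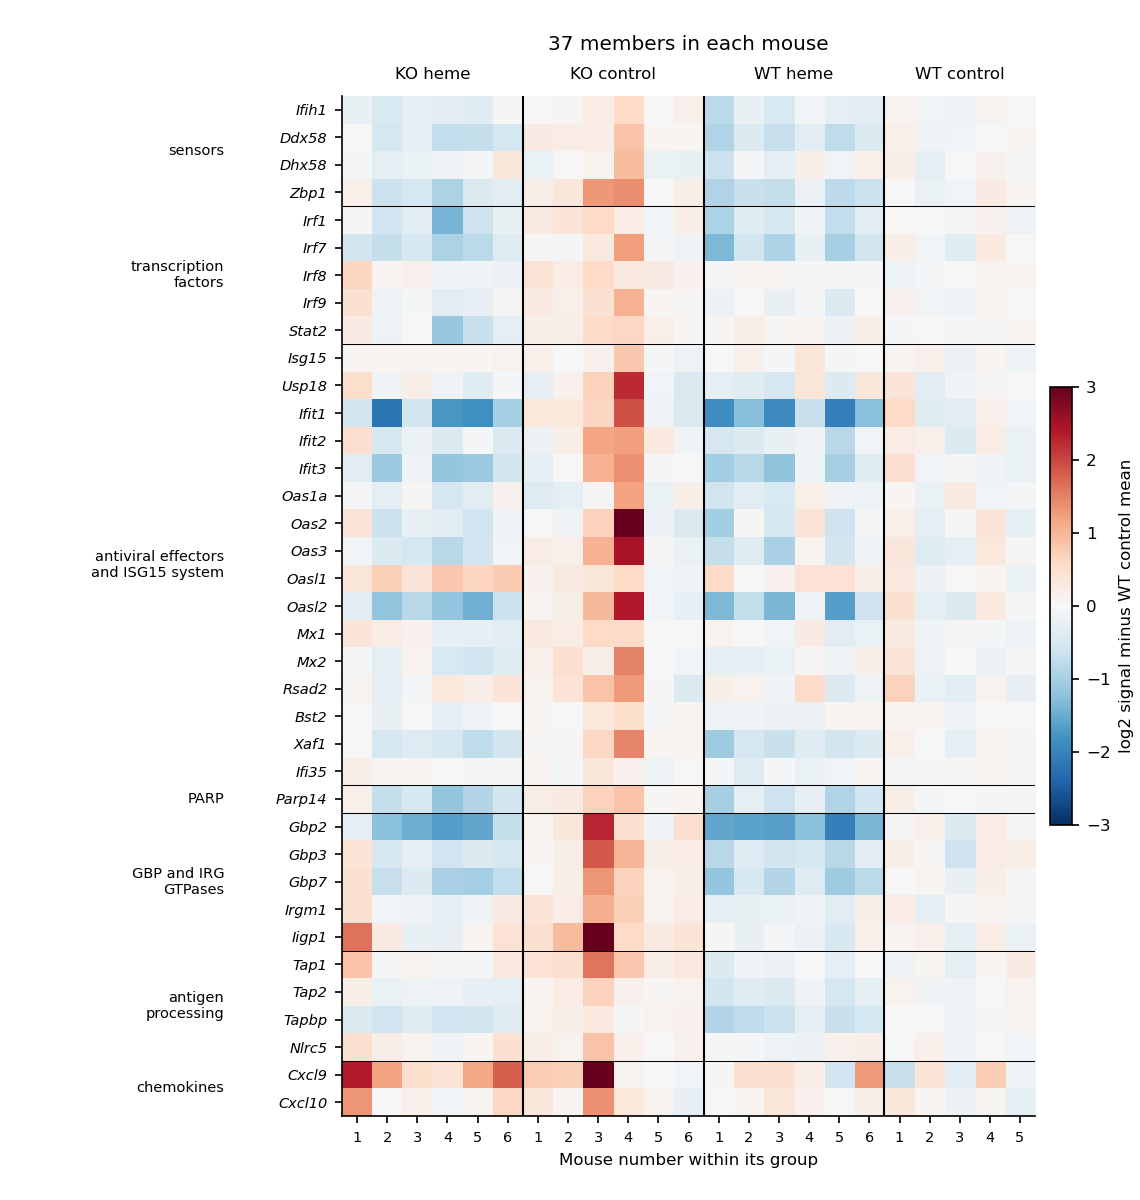
Log2 signal of the 37 members (rows, by role) in each of the 23 mice (columns, by group), relative to the mean of WT control mice. The colours are limited to 3 in either direction, and the darkest red fields fall on Oas2 in KO control mouse 4 and on Iigp1 and Cxcl9 in KO control mouse 3.

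KO control mice 3 and 4 both stood above the median of their group mates in most members, but their highest folds fell on different classes. Mouse 3 stood above it in 36 of 37 members, with all 16 antiviral effectors among them. Mouse 4 did so in 34, with all 5 guanylate-binding and immunity-related GTPases among them. Zbp1 was alike in mice 3 and 4 (2.18 and 2.33 times the others), as was Ifit2 (1.98 and 2.06 times). In KO control mouse 4 the antiviral effectors stood at a median of 2.58 times the median of the 5 other mice of the group, against 1.38 times in mouse 3. Oas2 was 547 in mouse 4, against 45 to 98.6 in the other KO control mice, which is 9.65 times their median. Oasl2 was 1036, against 165 to 384, and Usp18, which restrains the type I receptor, 342, against 53.4 to 118. Irf7 was 1226, against 479.7 to 632. In KO control mouse 3 the 5 guanylate-binding and immunity-related GTPases stood at a median of 3.18 times the others, against 1.41 times in mouse 4. Cxcl9 was 641 in mouse 3, against 43.9 to 77.9 in the other KO control mice, which is 13.1 times their median. Iigp1 was 366, against 43.8 to 70.3, and Gbp2 986, against 185 to 286. Mouse 4 stood above mouse 3 in 14 of 16 antiviral effectors and all 4 sensors, and mouse 3 above mouse 4 in all 5 of these GTPases, all 4 genes of antigen processing and both chemokines. As background, guanylate-binding proteins, immunity-related GTPases and Cxcl9 are known as targets of interferon gamma, and the genes of the Oas and Ifit families as targets of type I interferon. Whether an interferon of either type lay behind the levels of these mice was not tested.

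**Figure D4:**
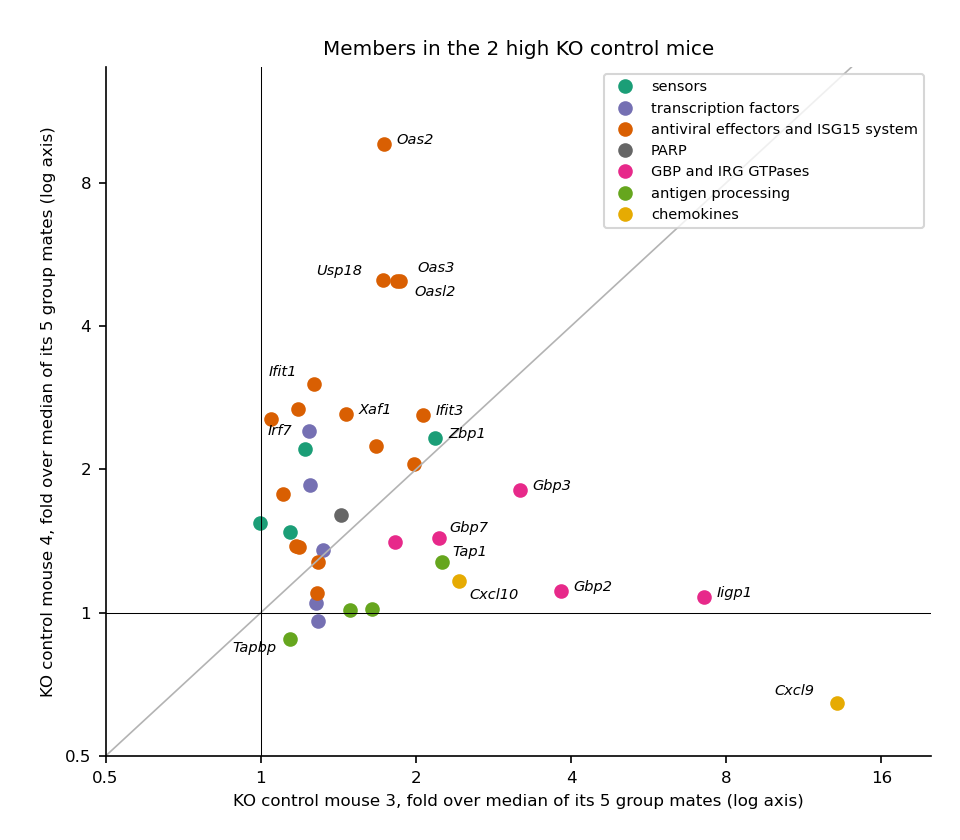
Each of the 37 members by its fold over the median of the 5 other KO control mice in KO control mouse 3 (horizontal log axis) and KO control mouse 4 (vertical log axis), coloured by role. Antiviral effectors extend upwards, to 9.65 times for Oas2, and GTPases and chemokines to the right, to 13.1 times for Cxcl9.

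Marker genes of other cells also differed between these mice. The mean log2 signal of the macrophage and dendritic cell markers was 6.94 in KO control mouse 3, the highest of its group, and 6.23 in mouse 4, the lowest, with 6.34 to 6.56 in the others. That of all leukocytes was 7.73 in mouse 3 and 7.49 in mouse 4, inside the range of 7.28 to 7.91 of the group, and that of smooth muscle was 7.25 in mouse 4, the lowest of a group that reached 8.36. The part of these cells in the high signals was not tested. In KO heme mice mouse 1 had the highest signal in 26 of 37 members, with a median of 1.52 times the others, and its leukocyte mean of 8.51 and B cell mean of 8.12 lay above the 6.69 to 7.70 and 5.97 to 6.98 of the other KO heme mice. With the leukocyte mean as a covariate over all mice 16 members were called lower in KO mice and 7 in WT mice.

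With KO control mice 3 and 4 left out, a choice made after seeing the data and because of their high levels, 9 members were called lower in KO mice. The calls of Ifih1, Stat2, Ifit3, Oasl2, Gbp3 and Gbp7 were lost, whereas Ddx58, Zbp1, Irf1, Irf7, Ifit1, Xaf1, Parp14, Gbp2 and Tapbp were still called. Ifit1 had a log2 fold change of -1.34 (adjusted p = 0.00356 from limma) without these mice, Gbp2 -1.34 (adjusted p = 1.75e-04) and Tapbp -0.61 (adjusted p = 1.52e-05). The median over the members was then -0.23, against -0.61 with all mice. Since the mice were picked for high levels of the members, leaving them out lowers the KO control mean by construction. Oasl1 was called higher (log2 fold change 0.57, adjusted p = 0.0018). Without KO heme mouse 1 as well, 15 members were called lower. Of these 13 were called in the main fit too, while Ifih1 and Ifit3 were lost and Irf8 and Tap2 gained. KO heme mouse 1 had the highest signal of its group in 26 of 37 members. Leaving it out therefore lowers the KO heme mean of most members by construction. In WT mice, whose values stay as they are while the common variance changes, 13 members were called lower in each of these fits.

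No member was called between KO and WT mice on either diet. On the control diet 0 of 37 members were called, against 0.0531% of all genes, although all 37 log2 fold changes of KO over WT lay above 0, with a median of 0.35 against 0.00 for all genes. At an unadjusted p under 0.05 there were 7. Several lists of cell markers also lay to one side of 0 in this comparison, while others had medians near 0. Of T and NK cell markers 10 of 13 were above 0 (median 0.04), of neutrophil markers 2 of 5 (-0.02) and of epithelial markers 10 of 10 (0.03). All 6 markers of all leukocytes were above 0 (median 0.35), as were 9 of 9 of B and plasma cells (0.34) and 12 of 13 of macrophages and dendritic cells (0.20), and all 14 of smooth muscle were below 0 (-0.63), with none of them called (at an unadjusted p under 0.05, 1, 0, 0 and 12). With the leukocyte or the smooth muscle mean as a covariate the median of the members was 0.25 or 0.28. Tap1 had the lowest p, with 200.1, 238 and 531 in KO control mice, against 145, 159, 182, 184 and 205 in WT control mice (log2 fold change 0.64, SE 0.19, adjusted p = 0.559 from limma). KO and WT control mice did not overlap for 2 members, Irf8 and Iigp1, against 0.893% of all genes. Irf8 had 569, 632 and 791 in KO control mice, against 479.97, 504, 527, 548 and 568 in WT control mice, which is a log2 fold change of 0.32 (adjusted p = 0.626). Iigp1 had 43.8, 52.6 and 366, against 30.1, 31.4, 38.6, 40.5 and 42.2 (1.01, adjusted p = 0.744). Without KO control mice 3 and 4 the median was 0.10 and 28 of 37 members were above 0, with 0 called.

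On the heme diet 0 of 37 members were called between the genotypes, against 0.234% of all genes, and 3 passed an unadjusted p under 0.05. The median log2 fold change of KO over WT was 0.12, with values from -0.39 for Stat2 to 0.92 for Cxcl9, and 31 members lay above 0. KO and WT mice overlapped on this diet in all 37 members, while 0.882% of all genes did not. The difference of the heme responses was called for 0 of 37 members, against 0.0106% of all genes, and 1 member, Stat2, passed an unadjusted p under 0.05. It was below 0 in 32 members, with a median of -0.24, and without KO control mice 3 and 4 above 0 in 24 members, with a median of 0.05. The comparison of the heme responses and that of the genotypes on the control diet share the KO control mice with the heme effect in KO mice, and the comparison on the heme diet shares the KO heme mice with it.

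**Figure D5:**
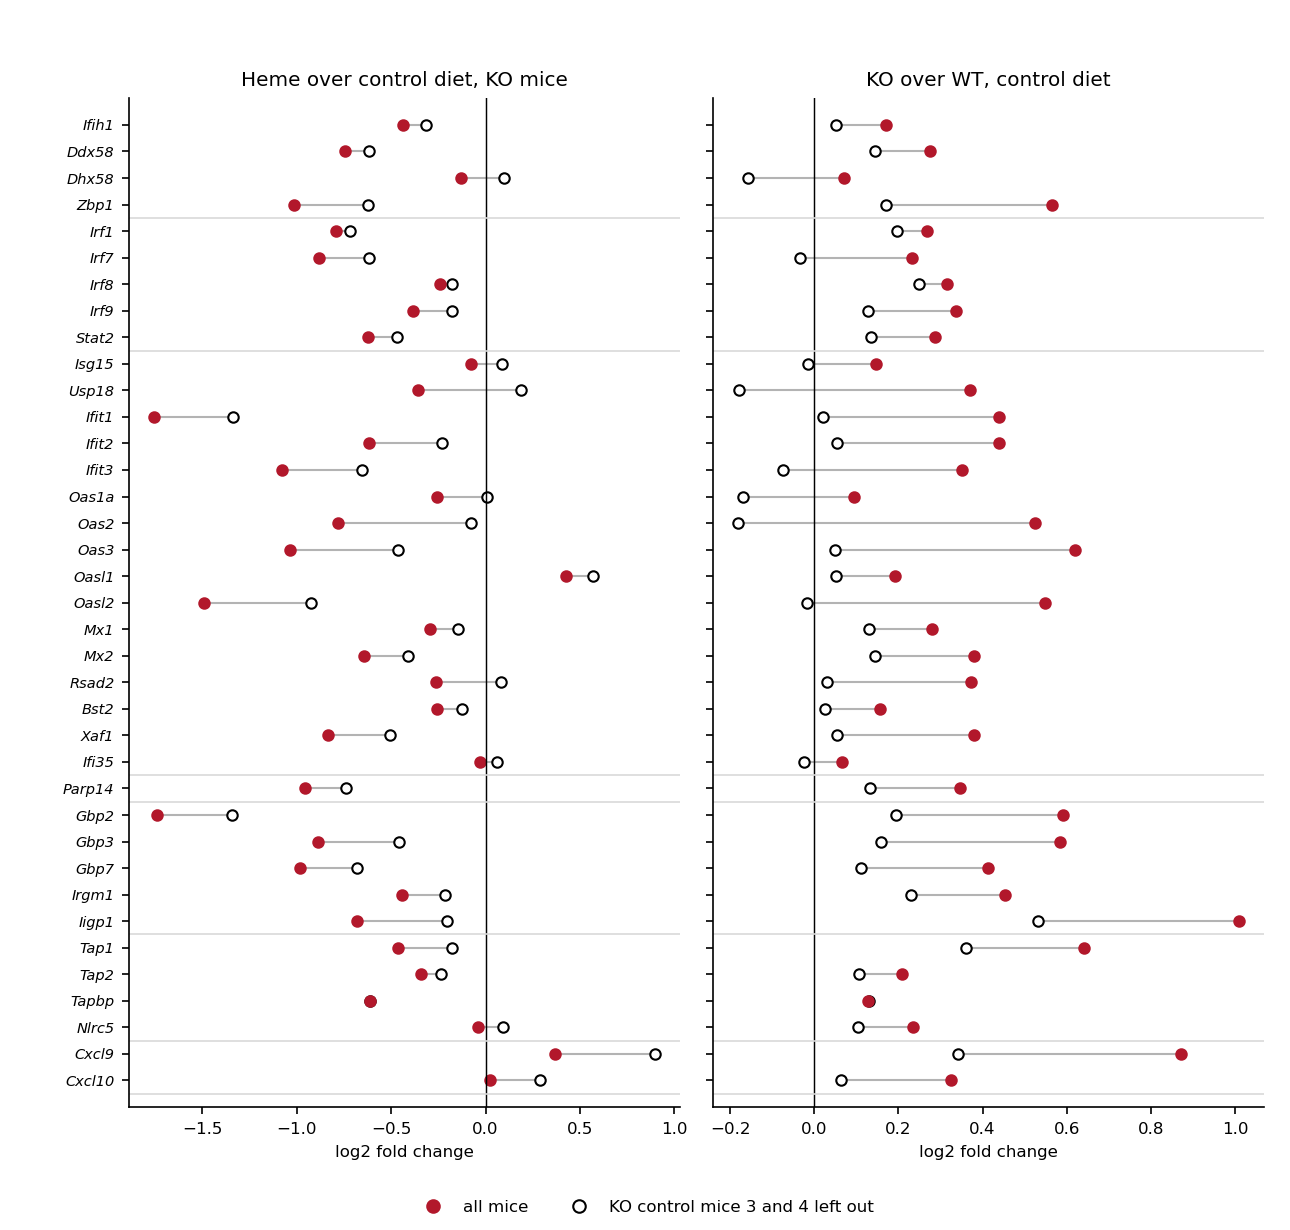
Log2 fold change (horizontal axes) of the 37 members with all mice (red) and with KO control mice 3 and 4 left out (open), for heme over control diet in KO mice (left) and for KO over WT on the control diet (right). Leaving out the mice moves the points to the right in the left panel and to the left in the right panel, with medians of -0.23 and 0.10 in place of -0.61 and 0.35, while Tapbp hardly moves.

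Of 6 interferon genes measured, of 10 listed, none was called in either genotype (at an unadjusted p under 0.05, 1 in KO and 0 in WT mice), but only Ifnl2 had a mean signal above 20 and could be called. Ifnb1 and Ifng, the genes of interferon beta and gamma, had group means of 9.19 to 12.8. Of 6 receptor chains none was called in WT mice, against 17.9% of all genes (2 at an unadjusted p under 0.05). In KO mice Ifnlr1, which binds interferon lambda, rose (log2 fold change 0.26, adjusted p = 0.00463 from limma) and its partner Il10rb fell (-0.30, adjusted p = 0.00166). These are 33.3% of the chains, against 18.4% of all genes called in KO mice. Of 13 kinases, Stat genes, other interferon regulatory factors and restraints, 1 rose and 1 fell in KO mice and 3 fell in WT mice. The called shares of this list, 15.4% in KO and 23.1% in WT mice, are not far from the 18.4% and 17.9% of all genes. Irf2, which competes with Irf1 for its sites, fell in both genotypes (-0.34 in KO and -0.33 in WT mice). Socs3, which blocks receptors of cytokines such as interleukin 6, rose in KO mice, with a mean signal of 244 ± 138 in KO heme mice and 87.5 ± 6.99 in KO control mice (SD, n = 6 each) and 513 in KO heme mouse 1. It had a log2 fold change of 1.33 (adjusted p = 4.57e-05 by limma) in KO mice and of 0.56 (adjusted p = 0.0594) in WT mice.

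Of 13 genes measured that sense microbes upstream of interferon, 4 rose and 1 fell in KO mice, and 2 rose and 1 fell in WT mice. The called shares were 38.5% in KO and 23.1% in WT mice, against 18.4% and 17.9% of all genes. Ticam1, the adaptor of Tlr3, and Trim25, the ligase that activates the product of Ddx58, rose in both genotypes (log2 fold changes 0.27 and 0.30 in KO mice, 0.41 and 0.24 in WT mice). Tmem173, which encodes Sting, the hub of DNA sensing, rose in KO mice (0.59, adjusted p = 0.00475 from limma) and had 0.34 (adjusted p = 0.116) in WT mice. Its signal was 451 in KO heme mouse 1, against 183 to 306 in the other KO heme mice.

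Other targets of interferon fell too. Of 45 measured, chosen with earlier results of these samples known, 17 fell in KO mice and 9 in WT mice and none rose in either, with median log2 fold changes of -0.39 and -0.21. The falls make up 37.8% and 20% of them, against 9.2% and 8.29% of all genes called lower. Among all genes 9.23% in KO and 9.6% in WT mice were called higher. Ido1, which degrades tryptophan, had a mean of 50.4 ± 13.1 in KO heme mice and 206 ± 117 in KO control mice (SD, n = 6 each). In WT mice it was 33.3 ± 12.3 on heme (SD, n = 6) and 102 ± 10.7 on the control diet (SD, n = 5). Ddx60, a helicase that aids RNA sensing, fell with log2 fold changes of -1.88 (adjusted p = 2.84e-05 by limma) in KO and -1.12 (adjusted p = 0.00611) in WT mice. H2-T23, an MHC class I gene, had log2 fold changes of -0.65 in KO and -0.58 in WT mice, and B2m, the light chain of MHC class I, -0.40 and -0.51, all called lower.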

How the data were processed

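Colon mucosa of 23 mice was analysed. Each probe set has a log2 expression value, deposited after the authors had run Robust Multi-array Average over the arrays. The version and genome build are not given in the sources used here. The study describes reorganised probe sets, whereas the deposited rows are Affymetrix transcript clusters. Of these 21218 carry 1 gene, 1881 several and 12457 none in the platform annotation. The brightest single-gene probe set stood for each of 18820 genes. A value of 2 to the power of the log2 value is called signal. A single linear model with the 4 group means was fitted by limma (version 3.58.1, R 4.3.3), with Benjamini-Hochberg adjustment over all genes. The study's thresholds (adjusted p under 0.01, mean signal above 20) were used. The study does not name its test. The steps were tested on simulated data.

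The members, their roles, and the pathway and marker lists were chosen with earlier results of these data known. Named were members called for genotype or interaction, the 14 called members with the largest heme effect, the brightest of each class, the other called members, and up to 4 called genes of each list. Stat2, Irf8, Iigp1 and others are named beside them because a comparison turned on them. Replicates are separate mice by the labels. Alternatives were other thresholds, filters, centring, variance models, weights, probe set averages, covariates, a replicate block and each array left out, and, added after seeing the data, fits without KO control mice 3 and 4 and over all probe sets. Intervals cover 95%. Tools also were Python 3.11.15, pandas 2.3.3, numpy 2.4.6 and matplotlib 3.10.9.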

Additional observations from a re-analysis of the deposited data

Results flagged for a closer look

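In 22 of 148 groups of 1 member each (14.9%), 1 mouse stood apart from the rest of its group by a gap that chance gives in about 1 in 20 groups. The members were measured in the same mice, so the groups are not independent. The rule was not run on other genes, and the share is a description and not a test. Of the 22 gaps, 14 fell on KO control mice 3 and 4. KO control mouse 4 stood above its group with signals of 1035 for Ifih1, 522.6 for Ddx58, 163.7 for Dhx58, 1226 for Irf7, 25.1 for Isg15, 453.7 for Oas1a, 547.4 for Oas2 and 61.8 for Mx2. KO control mouse 3 stood above its group with 986.2 for Gbp2, 366.4 for Iigp1, 229.9 for Tap2, 243.4 for Nlrc5, 640.8 for Cxcl9 and 117.2 for Cxcl10. The first of these lists holds sensors, antiviral effectors and Irf7, and the second GTPases, antigen processing genes and chemokines.

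KO heme mouse 1, which also had the highest leukocyte markers of its group, stood above it with 821.6 for Irf8, 76.41 for Gbp3 and 112.2 for Iigp1. KO heme mouse 6 was high for Dhx58 (107.5) and WT heme mouse 4 for Zbp1 (92.54). WT control mouse 1 was high for Ifit3 (165.1) and Mx2 (28.76), and WT control mouse 3 was low for Gbp3 (37.08).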

How the results depend on the processing

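All counts are of members called lower by limma unless stated. In KO mice 15 members were called, and 9 without KO control mice 3 and 4, which were chosen after seeing the data, while the other settings gave 10 to 22. In WT mice 6 were called, and 14 at an adjusted p under 0.05, 10 when the fit held the 2 compared groups alone, 11 with array weights, 2 with the smooth muscle covariate and 13 in each fit without KO control mice 3 and 4. With 1 array left out the count was 12 to 19 in KO mice and 3 to 9 in WT mice. No member was called higher in WT mice under any of these settings. In KO mice 1 member, Oasl1, was called higher at an adjusted p under 0.05, with arrays centred, with array weights, with trended and robust variances and in each fit without KO control mice 3 and 4, and with single arrays left out the count was 0 to 1. No member was called for genotype on either diet or for the interaction under any setting. Of 626 values of named members under the alternatives, 542 kept their side of the threshold, 52 lost a call, 32 gained one and 0 turned round while called. A value that changed sign without a call in either fit is counted among the 542.

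With the replicate number as a block 14 members were called in KO mice (without Gbp3) and 5 in WT mice (without Tap2), with 0 for genotype and interaction. Same-numbered mice were not taken as pairs in the main fit. Of 33 same-numbered pairs 14 had a correlation of deviations above 0.1. Their median was 0.08, against 0.003 for pairs with different numbers, and 4 of 23 arrays were nearest to an array of their own number. Few mice per group limit precision, as does signal near background in Isg15.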

Other observations

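Of 45 interferon targets outside the list, KO control mouse 3 had the highest signal of its group in 27 and mouse 4 in 18, with medians of 1.27 and 1.14 times the others, so that most stood only a little above them. The genes that follow were picked after their values were seen. In KO control mouse 4 Rtp4, a chaperone of receptors that interferon raises, was 545, against 95.6 to 179 in the other KO control mice. Ddx60 was 586 in this mouse, against 137 to 248, and Trim30a, a regulator of innate signalling, 635, against 189.7 to 354. In KO control mouse 3 Ido1 was 442, against 143 to 191 in the other KO control mice. Gbp4 was 262, against 69.9 to 97, and Ciita, the transactivator of MHC class II genes, 236, against 108 to 137.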
